A study of Mus musculus with 18 samples.

Results

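The genes described here are those of collagens, laminins and integrins on an expression array of mouse embryonic stem cells in which Esrrb was knocked down. Members were chosen by name alone: a target name of the array had to be a numbered collagen chain, a laminin alpha, beta or gamma chain, a numbered integrin chain or Itgav. This took 151 of the 46643 probes, under 75 target names. Of these, 39 names (81 probes) are collagens, 11 (22 probes) are laminin chains and 21 (40 probes) are integrin chains. The other 4 names met the rule without being integrin chains, namely Itgb3bp, Itgb1bp2, Nmrk2 (on the array as ITGB1BP3) and Eif6 (on the array as ITGB4BP). By current symbols 72 names matched directly and 3 through a synonym.

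E14, an established line of mouse embryonic stem cells, was kept in DMEM with serum on gelatin, and LIF was added to hold the cells undifferentiated. A pSUPER.puro plasmid for a short hairpin RNA (shRNA) was delivered by lipofection. The hairpin targeted either Esrrb, a nuclear receptor without a known natural ligand that helps maintain pluripotency, or GFP as the control. Total RNA was taken at days 2, 4 and 6, which gave 6 groups of 3 arrays: Esrrb shRNA and GFP shRNA at each day. Every group was transfected, so no untransfected cells are part of the comparison. All Esrrb arrays carry 1 shRNA label, so effects of the hairpin on other transcripts and effects of Esrrb loss cannot be told apart. The replicates are labelled biological, but nothing says whether they were separate cultures, so the p-values measure the spread between these samples.

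Collagens are triple-helical matrix proteins: fibrillar types form fibres, type IV forms the network of basement membranes, and FACIT collagens (fibril-associated, with interrupted helices) sit on fibres. Laminins are heterotrimers of an alpha, a beta and a gamma chain that build the other network of the basement membrane, the first matrix laid down in the mouse embryo. Integrins are dimers of an alpha and a beta chain that bind cells to these matrices and pass signals to the cytoskeleton.

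Esrrb itself was at 21.4%, 15.2% and 27.4% of its GFP shRNA level at days 2, 4 and 6 (log2 fold changes -2.23, -2.72 and -1.87, SE 0.11 each, limma adjusted p from 4.59e-11 to 3.89e-13). Across the 18 arrays the median raw intensity was 60.4 to 76.9, and 37.7% to 42.6% of probes were detected, each probe mean resting on a median of 37 beads. The replicate number was also the BeadChip: each of 3 chips held 1 array of every group, and a group always sat at 1 position, so the position on the chip cannot be told apart from the group. Of the embryonic stem cell markers Pou5f1, Nanog, Sox2, Zfp42 and Tdgf1, all were detected in all 6 groups. Their summed background-corrected intensity was 12830 to 14700 in Esrrb shRNA cells and 15500 to 16930 in GFP shRNA cells at day 2, 11760 to 12200 in Esrrb and 15570 to 16280 in GFP shRNA cells at day 4, and 12320 to 12920 in Esrrb and 15600 to 15990 in GFP shRNA cells at day 6. On these days 2, 3 and 3 of the 5 were called lower, beside 5.42%, 10.8% and 20.6% of all names. The part of these markers in the results was not tested.

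A probe is called detected in a group when its detection score, a deposited value that approaches 1 for signals above the negative controls, is over 0.95 on all 3 arrays. By this measure 41 of 75 member names were detected in at least 1 group, among them 21 of 39 collagens, 7 of 11 laminin chains and 11 of 21 integrin chains. Of the member probes, 39 of 151 (25.8%) were detected in Esrrb shRNA cells and 42 (27.8%) in GFP shRNA cells at day 2. At day 4 there were 45 (29.8%) in Esrrb shRNA cells and 40 (26.5%) in GFP shRNA cells. At day 6 there were 47 (31.1%) in Esrrb shRNA cells and 42 (27.8%) in GFP shRNA cells. Over all probes the shares were 35.1% in both groups of day 2, 36.8% in Esrrb and 35.0% in GFP shRNA cells at day 4, and 37.7% in Esrrb and 36.8% in GFP shRNA cells at day 6. The member share lay below that of all probes in each group, a difference that was not tested, and the Esrrb shRNA share was the higher one at days 4 and 6 for both.

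The undetected names include the collagens of connective tissue. On no array were Col1a1, Col1a2 and Col3a1 detected, the main fibrillar chains of skin, bone and vessel walls, nor Col5a2, Col4a3, Col9a1, Col15a1, Col19a1, Col23a1 and Col24a1. The same held for Lama1, the alpha chain of the embryonic laminin, for Nmrk2, and for Itga1, Itga2b, Itga7, Itga9, Itga11, Itgb2, Itgb3, Itgb6 and Itgb8. Another 13 names were detected on some arrays but on all 3 of no group. Col13a1 reached 8 of the 18 arrays, Col5a3 6, Itgb2l 4, Lamb1 and Itgb1bp2 3 each and Lamc3 2, while Col4a4, Col4a6, Col8a1, Col8a2, Col11a1, Col25a1 and Lama2 were detected on 1. A score under the limit says only that the probe did not rise above the negative controls. Lamc1 was detected in every group, although the usual alpha and beta partners Lama1 and Lamb1 were in none.

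Of the 41 members that were tested, 27 were detected in all 6 groups. Col12a1, Col27a1, Col4a5 and Itga8 were detected in Esrrb shRNA cells of day 6 alone, and Itga5 in GFP shRNA cells of day 2 alone. Itga4 was detected in 2 groups, Col10a1, Col22a1, Col6a1 and Lamb3 in 3, Col28a1 and Itgav in 4, and Col14a1 and Col17a1 in 5. A member that entered the test only through a group where it was high had to differ, so the counts below are descriptions of the tested members and not of all 75.

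Levels below are log2 normalised intensities, in which 1 unit is a doubling, and effects are log2 fold changes of Esrrb over GFP shRNA on the same day with the standard error (SE) of a linear model over all 18 arrays. A member is called higher or lower when its limma p, adjusted over 15190 target names by the Benjamini-Hochberg method, is under 0.05. Intensities of different probes are not compared with each other. Folds against a group in which none of the 3 arrays detected the probe are lower bounds ("at least"), with the dim group set on each array to the lowest level among detected probes or to the probe's own level, whichever was higher.

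More members were called at each later day, in both directions. At day 2, 7 of 41 members were called, 5 higher and 2 lower, beside 11.8% of all names (6.41% higher, 5.42% lower). At day 4, 11 were called, 7 higher and 4 lower, beside 23.1% of all names (12.4% higher, 10.8% lower). With the arrays centred on their medians, which moved the median of all names at day 4 by 0.10, that split was 9 higher and 3 lower, and over all names 2564 and 807 in place of 1879 and 1635. At day 6, 22 were called, 13 higher and 9 lower, beside 40.5% of all names (19.9% higher, 20.6% lower). Of the 13 higher, 4 (Col4a5, Col12a1, Col27a1 and Itga8) had entered through that very group. The members' shares were 17.1%, 26.8% and 53.7%, and among the 27 members detected in all 6 groups 55.6% were called at day 6, beside 43.5% of the 11458 names with that property. The median effect over the members was 0.10, 0.05 and -0.07 at days 2, 4 and 6, beside medians of 0.00 over all names on each day.

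By family, no collagen was called at day 2 (4 of 21 had an unadjusted p under 0.05, and 1 was called with the BeadChip as a block), 5 were at day 4 and 12 at day 6. Of 7 laminin chains, 2 were called at day 2, 3 at day 4 and 4 at day 6. Of 11 integrin chains, 5 were called at day 2, 3 at day 4 and 6 at day 6. Over all names the shares called on these days were 11.8%, 23.1% and 40.5%. Itga6 and Itgb7 were lower and Lama5 was higher on all 3 days, Lama3 and Lamb3 were called in opposite directions on different days, and 16 members were called on no day.

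**Figure D1:**
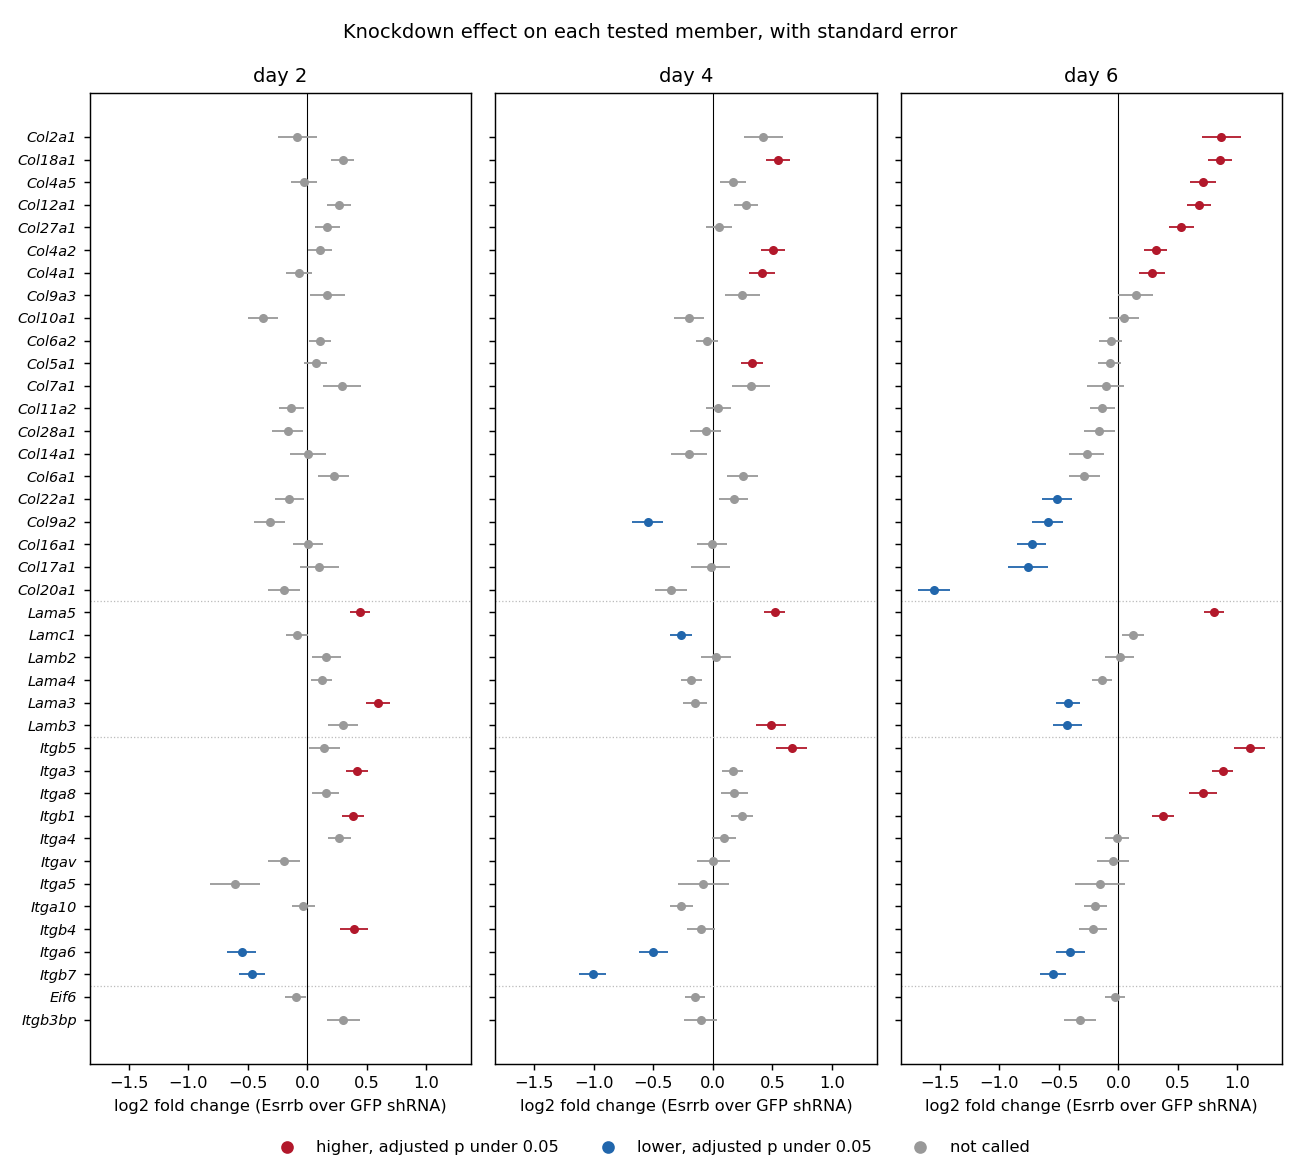
Log2 fold change of Esrrb over GFP shRNA for the tested members (rows, ordered within each family by the day 6 effect) at days 2, 4 and 6 (panels); bars are standard errors, red points were called higher, blue points lower, and grey points were not called. At day 6 effects run from 1.10 for Itgb5 to -1.55 for Col20a1, while all 21 collagens are grey at day 2.

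Among the basement membrane collagens, Col4a1, Col4a2 and Col18a1 were higher in knockdown cells at days 4 and 6. Col4a1 and Col4a2 encode the chains of the common type IV network and lie head to head on chromosome 8. Their RefSeq windows, 300 bases each around the gene's start (GRCm38.p6), are shown because both genes were called higher at days 4 and 6 and over time. The windows, chr8:11312777-11313076 on the minus strand for Col4a1 and chr8:11312555-11312854 on the plus strand for Col4a2, have 78 bases in common. Each is printed 5′ to 3′ on its own strand, and capitals mark matches of GGGCGG (a GC box) or CCAAT on either strand.
Col4a1: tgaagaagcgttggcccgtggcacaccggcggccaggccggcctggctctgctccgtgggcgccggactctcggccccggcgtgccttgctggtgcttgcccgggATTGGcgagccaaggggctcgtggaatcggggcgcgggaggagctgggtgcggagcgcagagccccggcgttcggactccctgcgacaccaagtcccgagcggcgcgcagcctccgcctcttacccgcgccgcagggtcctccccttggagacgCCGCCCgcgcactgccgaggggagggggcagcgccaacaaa
Col4a2: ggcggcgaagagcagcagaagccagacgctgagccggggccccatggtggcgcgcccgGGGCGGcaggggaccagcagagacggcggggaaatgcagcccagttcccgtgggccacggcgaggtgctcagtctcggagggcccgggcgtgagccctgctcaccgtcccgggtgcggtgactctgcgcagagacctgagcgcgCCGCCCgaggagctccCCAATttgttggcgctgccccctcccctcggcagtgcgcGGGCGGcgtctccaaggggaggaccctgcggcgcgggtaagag
The Col4a1 window holds 1 match to GGGCGG and 1 to CCAAT, and the Col4a2 window 3 and 1. The GGGCGG match of Col4a1 lies in the shared bases and is the same site as the last one of the Col4a2 window.

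Over all members, 29 of the 41 tested had a RefSeq window, 33 windows in all, with a median GC content of 59.3% beside 52.7% over all 32851 windows. GGGCGG was found in 60.6% of the member windows and in 35.7% of all windows, and CCAAT in 24.2% of the member windows and 37.4% of all. The motif AAGGTCA, a core sequence that Esrrb and its relatives bind, occurred on either strand in 1 member window, that of Col7a1 (3.03%, beside 4.72% of all windows). These are counts of letters in a short window and say nothing of binding.

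At day 4 the log2 intensity of Col4a2 was 10.14, 10.17 and 10.25 on the Esrrb arrays and 9.56, 9.81 and 9.66 on the GFP arrays. The groups did not overlap, and the effect was 0.51 (SE 0.10, 1.42-fold, limma adjusted p = 0.000742). At day 6 the values were 11.24, 11.22 and 11.56 on the Esrrb arrays and 10.98, 11.12 and 10.98 on the GFP arrays, an effect of 0.31 (SE 0.10, limma adjusted p = 0.0165). That smaller difference was lost without replicate 1 (adjusted p = 0.0595) or replicate 3 (0.0582) of the GFP arrays and without replicate 3 of the Esrrb arrays (0.12).

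Col4a1 followed the same course, with an effect of 0.42 (SE 0.11, limma adjusted p = 0.00777) at day 4 from 9.12, 9.21 and 9.17 on the Esrrb arrays and 8.61, 8.85 and 8.79 on the GFP arrays. At day 6 it stood at 10.25, 10.32 and 10.18 on the Esrrb arrays and at 10.05, 9.96 and 9.90 on the GFP arrays, without overlap (0.28, SE 0.11, limma adjusted p = 0.0428). This call sat at the threshold: it was lost without any 1 of the 3 Esrrb arrays of day 6, without replicate 2 or 3 of the GFP arrays of day 6 and without any 1 of the 3 Esrrb arrays of day 4 (adjusted p from 0.0501 to 0.136), with median centring of the arrays (0.0935) and without the filter on dim probes (0.0613). At day 2 neither gene was called, with effects of -0.07 for Col4a1 and 0.11 for Col4a2.

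Col18a1, a basement membrane collagen that carries heparan sulfate and yields endostatin, was higher at days 4 and 6. Its log2 intensity was 13.14, 13.04 and 12.92 on the Esrrb arrays of day 6 and 12.23, 12.06 and 12.26 on the GFP arrays, all Esrrb values being the higher ones (0.85, SE 0.10, 1.80-fold, limma adjusted p = 7.04e-07). The effect was 0.55 at day 4 (SE 0.10, adjusted p = 0.000297) and 0.30 at day 2 (SE 0.10, adjusted p = 0.0561), where it passed with the BeadChip as a block (0.0426), without replicate 3 of the Esrrb arrays of day 2 (0.0274) and without replicate 1 of the Esrrb arrays of day 6 (0.0488). Its second, dimmer probe was at 0.49 at day 2 (limma adjusted p = 0.031), 0.53 at day 4 and 0.73 at day 6. That probe thus passed at day 2, where the probe that stands for the gene did not.

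Col4a5, a chain of the specialised type IV network of kidney and other basement membranes, was detected on all 3 Esrrb arrays of day 6 and on 1 of 3 GFP arrays. It read 5.61, 5.58 and 5.56 in Esrrb shRNA cells and 4.56, 5.00 and 5.07 in GFP shRNA cells. It entered the test through that Esrrb group alone, so its difference of 0.71 is a description, and no test is read from it.

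**Figure D2:**
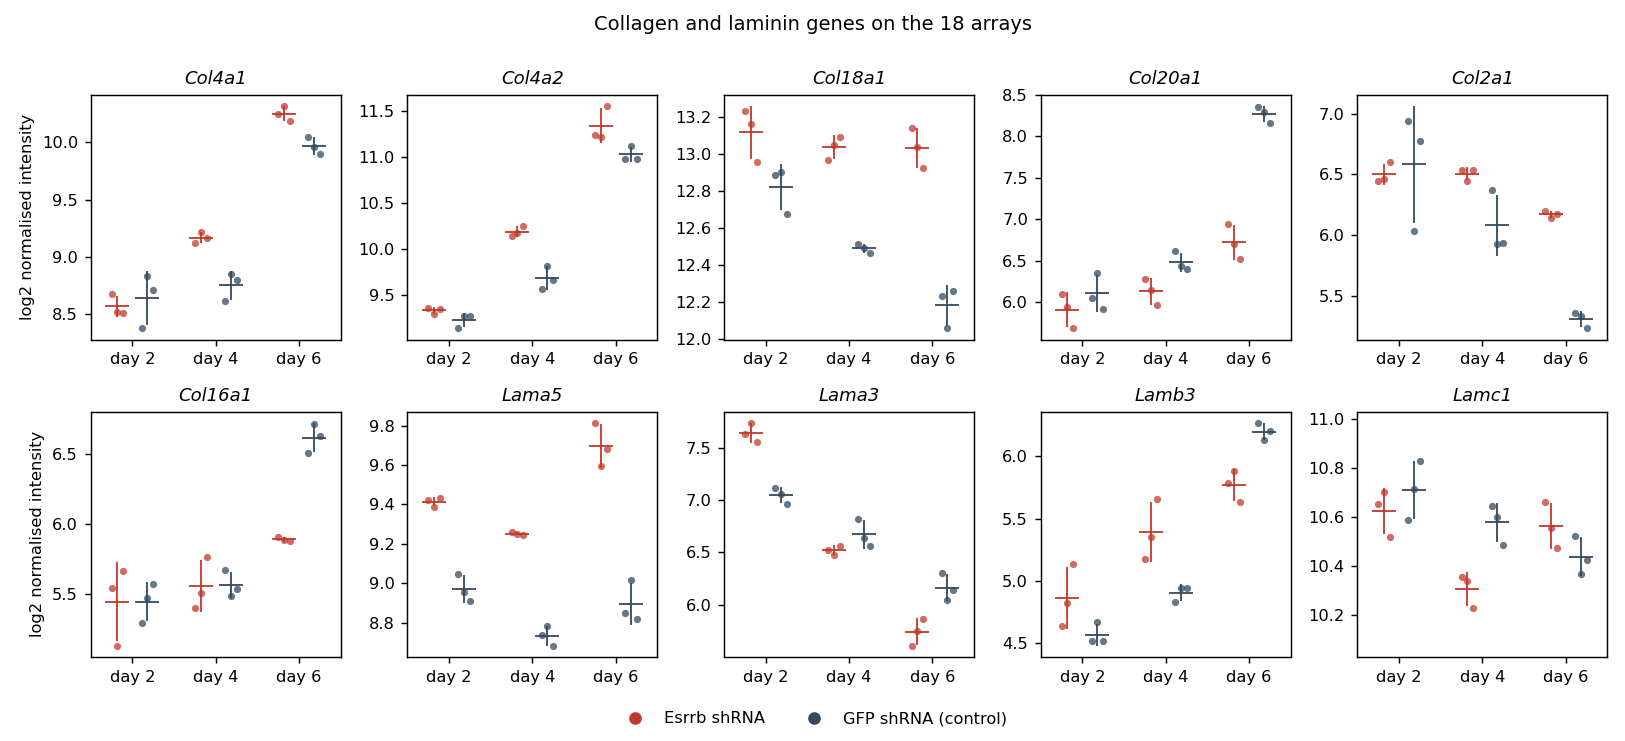
Log2 normalised intensity (vertical axis, own scale per gene) of 6 collagen and 4 laminin genes at days 2, 4 and 6 in Esrrb shRNA (red, left) and GFP shRNA cells (blue, right); points are single arrays, bars the mean ± SD (n = 3). Col4a1 and Col4a2 climb with time in both groups, Col18a1 stays near 13 in Esrrb shRNA cells while the GFP values decline, and Col20a1 and Col16a1 climb more in GFP shRNA cells.

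Of the fibrillar collagens, Col5a1 was called at day 4 and Col2a1 and Col27a1 at day 6. Col2a1, the main collagen of cartilage, stood at 6.20, 6.14 and 6.17 in Esrrb shRNA cells and at 5.36, 5.33 and 5.23 in GFP shRNA cells at day 6, 2 sets of values that lay far apart (0.86, SE 0.16, 1.82-fold, limma adjusted p = 0.000238). Its second probe gave 0.63 (adjusted p = 0.00855). At day 2 the first probe read 6.44, 6.46 and 6.60 in Esrrb shRNA cells and 6.94, 6.04 and 6.77 in GFP shRNA cells, which overlap. At day 4 the effect was 0.42 (adjusted p = 0.0665), and it passed with the BeadChip as a block (0.0379). Col5a1, which sets the diameter of collagen fibrils, was higher at day 4 alone (0.33, SE 0.09, limma adjusted p = 0.0149), a call lost without replicate 3 of the GFP arrays (0.087) or of the Esrrb arrays (0.0548) of that day. Col27a1, a cartilage collagen, was detected in Esrrb shRNA cells of day 6 only, at 5.15, 5.28 and 5.18 beside 4.63, 4.62 and 4.77 in GFP shRNA cells (at least 1.15-fold, with no test read from it). With no filter on dim probes another probe stood for Col27a1, and its effect was 0.05 (adjusted p = 0.903). Col11a2, a further cartilage collagen, was called on no day.

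The FACIT and related collagens held the largest fall of all members. Col20a1 read 6.94, 6.70 and 6.52 on the Esrrb arrays of day 6 and 8.36, 8.29 and 8.16 on the GFP arrays. No Esrrb value came within 1 unit of a GFP value, and the effect was -1.55 (SE 0.13, 2.93-fold lower, limma adjusted p = 1.4e-08), with -1.42, -1.59 and -1.64 on the 3 BeadChips. At day 4 it was -0.35 (adjusted p = 0.0657, and 0.0127 with the BeadChip as a block), and at day 2 it was -0.20.

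Col16a1, another FACIT collagen, was lower only at day 6, with 5.91, 5.89 and 5.88 on the Esrrb arrays and 6.51, 6.72 and 6.64 on the GFP arrays (-0.73, SE 0.13, limma adjusted p = 9.2e-05). On the earlier days its groups overlapped, with effects of 0.00 and -0.01. Col22a1, a collagen of tissue junctions, was at 5.94, 5.96 and 5.75 on the Esrrb arrays and 6.38, 6.20 and 6.62 on the GFP arrays of day 6, again without overlap (-0.52, SE 0.12, limma adjusted p = 0.00197). Col9a2, a chain of the cartilage type IX collagen, was lower at days 4 (-0.55, SE 0.13, limma adjusted p = 0.00389) and 6 (-0.60, adjusted p = 0.00098), while Col9a3, its partner chain, was called on no day (0.17, 0.24 and 0.15). Col12a1 went the other way: it was detected in Esrrb shRNA cells of day 6 alone, at 5.42, 5.22 and 5.54 beside 4.62, 4.75 and 4.77 in GFP shRNA cells (at least 1.31-fold, with no test read from it).

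Col17a1, the transmembrane collagen of hemidesmosomes, was detected on 1 of 3 Esrrb arrays and on all GFP arrays of day 6. It stood at 5.28, 4.90 and 4.95 in Esrrb shRNA cells and at 5.62, 5.90 and 5.90 in GFP shRNA cells (-0.76, SE 0.17, limma adjusted p = 0.000913). Not called on any day were Col7a1 of the anchoring fibrils, the type VI microfibril chains Col6a1 and Col6a2, Col10a1 of hypertrophic cartilage, Col14a1 and Col28a1. Their day 6 effects ran from -0.29 for Col6a1 to 0.05 for Col10a1.

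Among the laminin chains Lama5 was higher on all 3 days, and Lama3 and Lamb3 were called in both directions. Lama5, the alpha chain of the laminins used as a substrate for pluripotent cells, was at 9.42, 9.39 and 9.43 on the Esrrb arrays of day 2 and at 9.05, 8.95 and 8.91 on the GFP arrays (0.44, SE 0.09, limma adjusted p = 0.00147). At day 4 it read 9.26, 9.25 and 9.25 in Esrrb shRNA cells and 8.74, 8.78 and 8.68 in GFP shRNA cells (0.52, adjusted p = 0.000134). At day 6 it read 9.81, 9.59 and 9.68 in Esrrb shRNA cells and 8.85, 9.02 and 8.82 in GFP shRNA cells (0.80, SE 0.09, 1.74-fold, adjusted p = 2.88e-07). Esrrb and GFP arrays were apart on every day, and no 1 array decided any of these calls.

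Lama3 and Lamb3 encode chains of the laminin that anchors epithelia. Lama3 was higher at day 2, with 7.63, 7.74 and 7.56 on the Esrrb arrays and 7.12, 7.06 and 6.97 on the GFP arrays (0.60, SE 0.10, 1.51-fold, limma adjusted p = 0.000337). At day 6 it was lower, with 5.61, 5.74 and 5.87 on the Esrrb arrays and 6.30, 6.04 and 6.14 on the GFP arrays (-0.42, SE 0.10, limma adjusted p = 0.0019). Neither day showed overlap, and at day 4 the groups overlapped (-0.15). A second, dimmer Lama3 probe did not follow: its effects were 0.16, 0.33 and 0.20 at days 2, 4 and 6, none of them called, and with the mean of both probes the day 6 effect was -0.11 (adjusted p = 0.313).

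Lamb3 was also called in both directions. At day 4 it was detected on all Esrrb arrays (5.18, 5.35 and 5.65) and on no GFP array (4.83, 4.94 and 4.95), at least 1.25-fold higher (limma adjusted p = 0.00697), and without replicate 3 of the Esrrb arrays the adjusted p was 0.0586. At day 6 it was detected on every array, at 5.79, 5.89 and 5.64 in Esrrb shRNA cells and 6.27, 6.13 and 6.20 in GFP shRNA cells (-0.43, SE 0.13, limma adjusted p = 0.0094), and without replicate 3 of the Esrrb arrays the adjusted p was 0.0508.

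Lamc1, the gamma chain of most laminins, was lower at day 4 (-0.27, SE 0.09, limma adjusted p = 0.0416). That call was lost without replicate 1 or 2 of the GFP arrays of day 4, without any 1 of the Esrrb arrays of day 4 and without replicate 3 of the GFP arrays of day 6 (adjusted p from 0.0524 to 0.151). It was also lost with median centring (0.49) and with the arrays of day 4 alone (0.0518). Lama4, found in vessels and mesenchyme, and Lamb2, a beta chain of synaptic and glomerular laminins, were called on no day (day 6 effects -0.14 and 0.01).

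**Figure D3:**
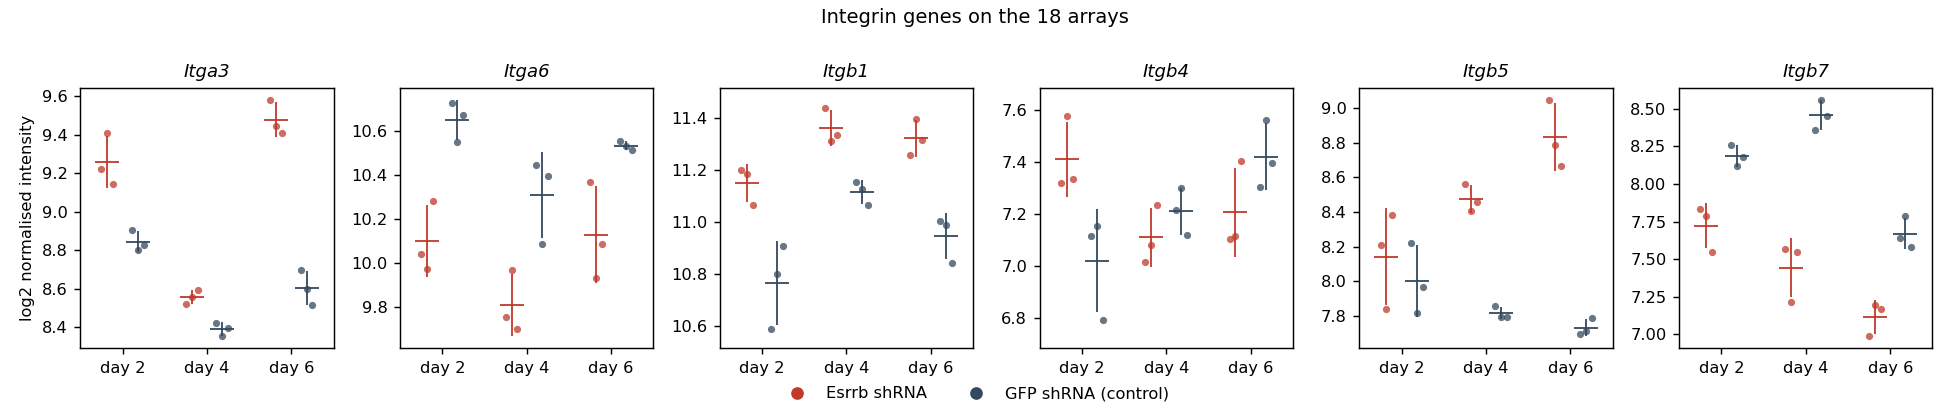
Log2 normalised intensity (vertical axis, own scale per gene) of 6 integrin genes at days 2, 4 and 6 in Esrrb shRNA (red, left) and GFP shRNA cells (blue, right); points are single arrays, bars the mean ± SD (n = 3). Itgb5 and Itga3 are higher in Esrrb shRNA cells at day 6, and Itga6 and Itgb7 lower on all 3 days.

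Of the integrin chains, the vitronectin receptor chain Itgb5 and the laminin receptor chain Itga3 rose most, and the laminin receptor chain Itga6 and the leukocyte chain Itgb7 fell. Itgb5 overlapped between groups at day 2 (8.21, 7.84 and 8.38 on the Esrrb arrays, 8.22, 7.81 and 7.97 on the GFP arrays). At day 4 it stood at 8.56, 8.41 and 8.46 in Esrrb shRNA cells and 7.86, 7.79 and 7.79 in GFP shRNA cells (0.66, SE 0.13, 1.58-fold, limma adjusted p = 0.000716). At day 6 it stood at 9.05, 8.78 and 8.66 in Esrrb shRNA cells and 7.69, 7.71 and 7.79 in GFP shRNA cells (1.10, SE 0.13, 2.15-fold, limma adjusted p = 9.03e-07), the largest rise among the members. Its 2 probes gave like effects, 0.66 and 0.59 at day 4 and 1.10 and 1.14 at day 6. Itgav, the alpha chain that pairs with Itgb5, did not pass through its brighter probe (0.00 at day 4, -0.05 at day 6). A second probe of nearly the same brightness gave 0.50 (adjusted p = 0.00713) and 0.57 (adjusted p = 0.00117). That probe was detected on 1 of 3 GFP arrays of day 4 and on none of day 6, so 0.57 is not read as a fold. Whether Itgav was called thus depends on the probe.

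Itga3 was higher at days 2 and 6 but was not called between them. Its log2 intensity was 9.22, 9.41 and 9.15 on the Esrrb arrays of day 2 and 8.90, 8.80 and 8.83 on the GFP arrays (0.42, SE 0.09, limma adjusted p = 0.00351). At day 4 the values were 8.52, 8.56 and 8.59 in Esrrb shRNA cells and 8.42, 8.35 and 8.40 in GFP shRNA cells (0.17, adjusted p = 0.204). At day 6 they were 9.58, 9.45 and 9.41 in Esrrb shRNA cells and 8.69, 8.60 and 8.52 in GFP shRNA cells (0.87, SE 0.09, 1.83-fold, limma adjusted p = 1.44e-07). The groups did not overlap on any day. Fitted on the arrays of day 2 alone, the day 2 effect had an adjusted p of 0.0669.

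Itga6, whose product pairs with Itgb1 or Itgb4 to bind laminin and is a surface marker of embryonic stem cells, was lower on all 3 days. At day 2 it was at 10.04, 9.97 and 10.29 on the Esrrb arrays and 10.73, 10.55 and 10.67 on the GFP arrays (-0.55, SE 0.12, limma adjusted p = 0.00432). The effects at days 4 and 6 were -0.50 (adjusted p = 0.00455) and -0.41 (adjusted p = 0.0111), the last of which was lost without replicate 2 of the Esrrb arrays (0.0734) and with median centring (0.0819). The other 3 Itga6 probes that passed the filter gave -0.36, -0.34 and -0.06 at day 2, none of them called, and 1 of the 3 was lower at days 4 (-0.77, adjusted p = 0.00161) and 6 (-0.44, 0.04). Itgb1, the beta chain shared by most matrix receptors, was higher at day 2 (0.38, SE 0.09, limma adjusted p = 0.00906) and day 6 (0.38, adjusted p = 0.00284), with 0.25 (adjusted p = 0.0651) at day 4. Its day 2 call was lost without replicate 1 of the GFP arrays (0.0533) and with the arrays of day 2 alone (0.105), and a dimmer probe gave 0.18, 0.04 and 0.15, none of them called.

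Itgb4, the hemidesmosome partner of Itga6, was higher at day 2 alone, with 7.32, 7.58 and 7.34 on the Esrrb arrays and 7.12, 7.15 and 6.79 on the GFP arrays (0.39, SE 0.12, limma adjusted p = 0.0348). This call was lost without replicate 3 of the GFP arrays (0.157) and without replicate 2 (0.153) or 3 (0.0508) of the Esrrb arrays. It was also lost with median centring (0.0624), without the filter (0.0608) and with the arrays of day 2 alone (0.141).

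Itgb7, known from the homing of lymphocytes, was lower on each day, with the largest estimate at day 4. There it read 7.57, 7.22 and 7.55 in Esrrb shRNA cells and 8.36, 8.56 and 8.45 in GFP shRNA cells (-1.01, SE 0.11, 2.02-fold lower, limma adjusted p = 6.87e-07). At day 2 the effect was -0.46 (adjusted p = 0.00739) and at day 6 it was -0.55 (adjusted p = 0.000415), all without overlap. Itgae and Itgal, leukocyte alpha chains named by letter and so outside the rule, were lower at days 4 (-0.84 and -0.86) and 6 (-0.95 and -0.46) as well, and the partner Itga4 was not called (0.27, 0.09 and -0.01).

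Itga8, a receptor chain of kidney development, was detected in Esrrb shRNA cells of day 6 only, at 5.09, 5.33 and 5.36 beside 4.50, 4.45 and 4.71 in GFP shRNA cells (at least 1.19-fold, with no test read from it). The fibronectin receptor chain Itga5 was detected on 1 Esrrb array and on all GFP arrays of day 2, with 4.66, 5.32 and 4.97 in Esrrb shRNA cells and 5.72, 5.53 and 5.52 in GFP shRNA cells. Its difference of -0.61 was not called. Itga5 entered the test through that GFP group alone, so the difference is a description, and no test is read from it. Itga10, a collagen receptor chain of cartilage, had effects of -0.03, -0.27 and -0.20, of which that of day 4 passed with the BeadChip as a block (0.0499).

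Neither tested name that is no integrin chain was called between Esrrb and GFP shRNA cells on any day. Itgb3bp, which binds the tail of an integrin beta chain and is also a centromere protein, had effects of 0.30, -0.10 and -0.32. Eif6, a factor of ribosome assembly, was at -0.10, -0.15 and -0.03 through its bright probe and at 0.72 (adjusted p = 0.000112) at day 6 through a dimmer one.

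The days themselves moved many members in both kinds of cells. From the day 2 to the day 6 arrays of Esrrb shRNA cells, 18 of 41 members changed, 13 higher and 5 lower, beside 36.6% of all names (19.3% higher, 17.3% lower). Of the 13 higher, Col4a5, Col12a1, Col27a1 and Itga8 had entered only through the Esrrb arrays of day 6, so no test is read from them. In GFP shRNA cells 22 changed, 14 higher and 8 lower, beside 48.6% of all names (25.5% higher, 23.1% lower). Of the 8 lower, Itga5 had entered only through the GFP arrays of day 2, so no test is read from it. Of the 14 higher, Col4a5, Col6a1, Col22a1 and Lamb3 were detected in neither group of day 2. They entered through groups of later days, so the filter favoured a rise in them. The same holds for Col22a1 and Lamb3 among those higher in Esrrb shRNA cells. Among the 27 members detected in all 6 groups, 11 (40.7%) changed in Esrrb shRNA cells, beside 39.9% of the 11458 such names. In GFP shRNA cells 17 (63%) did, beside 52.7%. Median centring gave 15 higher and 3 lower in Esrrb shRNA cells (3560 and 1498 over all names, in place of 2932 and 2625) and 16 higher and 5 lower in GFP shRNA cells (4328 and 2344 over all names, in place of 3879 and 3508). Both comparisons were made without a zero time point, so time in culture and time since transfection cannot be told apart. In Esrrb shRNA cells 13 of the 18 calls held in all leave-one-out fits. These include Col4a5, Col12a1, Col27a1 and Itga8, from which no test is read. The calls of Col16a1, Col17a1, Itga10 and Lama5 were lost without replicate 1 or 2 of day 2 or without 1 of the 3 arrays of day 6 (adjusted p from 0.0503 to 0.162). In GFP shRNA cells 14 calls held, and those of Col5a1, Col7a1, Eif6, Itga3, Itga5, Itgb4 and Lamc1 were lost without 1 or another of the 6 GFP arrays of days 2 and 6 (adjusted p from 0.05 to 0.17).

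Type IV collagen accounted for the largest rise in knockdown cells. Col4a2 was 4.03-fold higher at day 6 than at day 2 in Esrrb shRNA cells (2.01, SE 0.10, limma adjusted p = 7.61e-12) and 3.49-fold in GFP shRNA cells (1.80, SE 0.10, limma adjusted p = 2.47e-11). Col4a1 rose by 1.69 in Esrrb shRNA cells and by 1.33 in GFP shRNA cells (SE 0.11 each). The difference between the 2 kinds of cells was 0.20 for Col4a2 and 0.36 for Col4a1 (SE 0.14 and 0.15, limma adjusted p = 0.324 and 0.0987), which did not pass. Col22a1 was on none of the arrays of day 2 and on all of day 6, at least 1.78-fold higher in Esrrb shRNA cells and at least 2.57-fold higher in GFP shRNA cells.

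Col20a1 led the changes of control cells. It was 1.76-fold higher at day 6 than at day 2 in Esrrb shRNA cells (0.81, SE 0.13) and 4.49-fold higher in GFP shRNA cells (2.17, SE 0.13). Lamb3 rose by 0.91 in Esrrb shRNA cells, where 1 of 3 arrays of day 2 detected it, and was at least 2.24-fold higher in GFP shRNA cells. Col16a1 rose by 0.45 in Esrrb shRNA cells, where the call was lost without replicate 2 of day 2 (adjusted p = 0.0702), and by 1.18 in GFP shRNA cells. Itgb5 rose in Esrrb shRNA cells (0.69, SE 0.13, limma adjusted p = 0.000275) and was at -0.27 in GFP shRNA cells (adjusted p = 0.0911). Its second probe rose by 0.42 in Esrrb shRNA cells (adjusted p = 0.00381) and fell by 0.67 in GFP shRNA cells (2.82e-05).

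Other members fell with time. Lama3 was 3.74-fold lower at day 6 than at day 2 in Esrrb shRNA cells (-1.90, SE 0.10, limma adjusted p = 1.61e-11) and 1.85-fold lower in GFP shRNA cells (-0.89, SE 0.10). Its second probe was at -0.33 in Esrrb shRNA cells (adjusted p = 0.0753) and at -0.36 in GFP shRNA cells (0.0388). Itgb7 fell by 0.60 in Esrrb shRNA cells and by 0.52 in GFP shRNA cells. Col2a1 was at -0.33 in Esrrb shRNA cells (adjusted p = 0.124) and fell by 1.28 in GFP shRNA cells (2.42-fold, limma adjusted p = 1.96e-06). Col18a1 was at -0.08 in Esrrb shRNA cells (adjusted p = 0.545) and fell by 0.64 in GFP shRNA cells. For both genes the first probe's GFP values of day 6 lay under those of day 2 without overlap. The second, dimmer probes fell in both kinds of cells: that of Col2a1 by 0.67 in Esrrb shRNA cells (adjusted p = 0.00688) and by 1.07 in GFP shRNA cells (5.92e-05), and that of Col18a1 by 0.70 in Esrrb shRNA cells (0.000604) and by 0.94 in GFP shRNA cells (1.66e-05). Whether either gene held its level in knockdown cells thus depends on the probe.

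**Figure D4:**
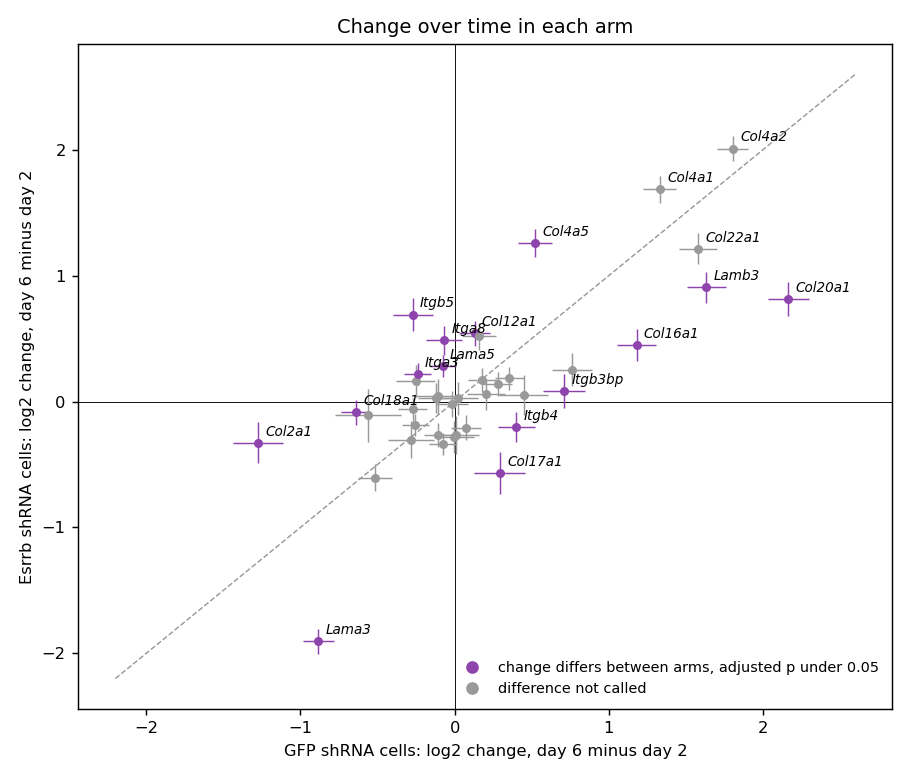
Log2 change from day 2 to day 6 in Esrrb shRNA cells (vertical axis) against that in GFP shRNA cells (horizontal axis) for the tested members; bars are standard errors, the dashed line marks equal change, and purple points differ between the 2 kinds of cells with an adjusted p under 0.05. Col4a1, Col4a2 and Col22a1 lie high on both axes near the line, Col20a1, Lamb3 and Col16a1 below it, and Lama3 lies lowest in Esrrb shRNA cells.

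The knockdown effect differed between day 6 and day 2 for 15 of 41 members, beside 24.7% of all names. It was more positive at day 6 for 8 members (11.3% of all names) and more negative for 7 (13.4% of all names). Of the 8, Col4a5, Col12a1 and Itga8 were detected on all 3 arrays of no other group and entered the test only through the Esrrb arrays of day 6, so their differences rest on levels at or below background. Of the 7, Lamb3 was detected on 1 of 3 Esrrb arrays and on no GFP array of day 2. Its day 2 effect thus rests on levels near or below background.

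Genes that make, process or bind these proteins moved in both directions too, and their counts at day 6 stand beside 19.9% of all names called higher and 20.6% called lower. At day 2 these shares were 6.41% and 5.42%, and at day 4 they were 12.4% and 10.8%. Of 24 tested collagen-processing enzymes and chaperones 7 were higher and 9 lower at day 6 (2 and 2 at day 2, 2 and 6 at day 4). Pcolce, which enhances procollagen cleavage, was lower on all 3 days (-0.50, -1.85 and -1.45, SE 0.11, limma adjusted p = 4.01e-09 at day 6). The collagen prolyl hydroxylase subunit P4ha1 (-0.90) and the lysyl hydroxylase Plod1 (-0.78) were lower at day 6. The crosslinking enzyme Lox, detected on all Esrrb arrays and on no GFP array of day 6, was at least 1.40-fold higher there. Lox was detected in no other group and entered the test through that one, so no test is read from it. Some other genes of these lists entered in the same way, and the counts include them. Of 15 other matrix glycoproteins 2 were higher and 5 lower at day 6: Lgals3, a matrix-binding lectin (1.05, after -0.35 and -0.74 at days 2 and 4, both called lower), and Frem2 (1.13) were higher, and Nid1, which links laminin to type IV collagen (-0.72), and Fbln2 (-1.34) were among those that fell. Nid1 was lower on all 3 days, against higher Col4a1 and Col4a2 at days 4 and 6.

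Of 23 integrin adaptors and effectors 9 were higher and 4 lower at day 6 (4 and 4 at day 2, 7 and 3 at day 4). The focal adhesion protein gene Zyx was higher on all 3 days (0.97, 1.34 and 1.50, SE 0.09). Fermt1, a kindlin that activates integrins, was on no GFP array of days 2 and 4, where it was at least 1.58-fold and 2.68-fold higher in Esrrb shRNA cells, and was higher at day 6 (1.58, SE 0.13). The tetraspanin gene Cd9 (-0.37, -0.57 and -0.89) and Fblim1, which binds filamin (-0.79, -1.01 and -0.89), were lower on all 3 days. Of 9 other matrix receptors 2 were higher at day 6, the collagen receptor Ddr1 (0.74) and the syndecan Sdc1 (on no GFP array, at least 1.43-fold), and 2 lower, Sdc4 (-0.29, after 0.47 and a call as higher at day 4) and Cd44 (-0.35). Of 11 matrix proteases and inhibitors 5 were higher and 3 lower at day 6, with Plaur (1.12), Timp3 (1.20) and Mmp14 (0.78) up and Mmp11 (-1.19) down. The median effects of these 5 lists at day 6 lay between -0.07 and 0.17, and both tested integrin chains named by letter were lower (median -0.71), beside 0.00 over all names.

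Markers of other cell types were measured beside these genes, as sums of background-corrected linear intensity over a list. Counts of called markers stand beside 6.41% of all names higher and 5.42% lower at day 2. These shares were 12.4% and 10.8% at day 4, and 19.9% and 20.6% at day 6. For 7 trophectoderm markers (Cdx2, Elf5, Eomes, Tfap2c, Krt7, Krt8 and Krt18) the sum was 3144 to 3361 in Esrrb shRNA cells and 2009 to 2421 in GFP shRNA cells at day 2. It was 6411 to 6831 in Esrrb shRNA cells and 2670 to 2811 in GFP shRNA cells at day 4, and 12310 to 14000 in Esrrb shRNA cells and 5678 to 5782 in GFP shRNA cells at day 6. Of the 6 tested, 5 were higher at day 6, led by Krt8 (3.00), and Elf5 was detected on all 3 arrays of no group. The sum was higher on every Esrrb array than on the GFP arrays of the same day on all 3 days, on each of which members were called in both directions. For 15 endoderm markers the sums were 1311 to 1323 in Esrrb shRNA cells and 1410 to 1480 in GFP shRNA cells at day 6, with 4 markers higher and 4 lower. Sox7, Afp and Thbd were detected in no group. Ttr was detected only in Esrrb shRNA cells of day 4 and Cubn only in those of day 6, and they entered the test through these groups. The endoderm sums were 1081 to 1245 in Esrrb shRNA cells and 961.7 to 1054 in GFP shRNA cells at day 2, with 3 markers higher and 2 lower. At day 4 they were 1384 to 1471 in Esrrb shRNA cells and 1146 to 1323 in GFP shRNA cells, with 4 higher and 1 lower. For 10 fibroblast markers the sums were 3173 to 3274 in Esrrb shRNA cells and 2345 to 2499 in GFP shRNA cells at day 6, with 1 member, Vim, higher and 3 lower. They were 2776 to 2902 in Esrrb shRNA cells and 3681 to 4131 in GFP shRNA cells at day 4, with 3 lower, and Lum, Twist2 and Postn were detected in no group. For 5 endothelial markers the sums were 1044 to 1210 in Esrrb shRNA cells and 735.2 to 987.3 in GFP shRNA cells at day 2, and 875.1 to 997.4 in Esrrb shRNA cells and 1069 to 1111 in GFP shRNA cells at day 6, and Cdh5 and Tie1 were undetected. The part of these cell types in the results was not tested, and in whole cultures more cells of a type and more RNA per cell cannot be told apart.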

How the data were processed

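RNA of E14 cells was hybridised to 18 MouseWG-6 V1.1 bead arrays. The deposited intensity of each probe is the authors' BeadStudio 3.2.6 summary, without normalization per the file headers, and is the mean over the number of beads that the deposited table also gives. The deposited detection score runs up to 1, and 1 minus the score served as the detection p. The authors' second, processed table was not used, since its identifiers could not be matched to the probes.

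Intensities were background-corrected with the negative control level inferred from the detection p, quantile-normalised and put on the log2 scale with neqc (offset 16) in limma 3.58.1 under R 4.3.3. The deposited intensity was the only measurement so treated. A probe was kept when its detection p was below 0.05 throughout the 3 arrays of some group (19489 probes), and the brightest kept probe stood for each of 15190 target names. The 18 arrays entered a single linear model with a term for each of the 6 groups, and p-values of each of 6 contrasts were adjusted by the Benjamini-Hochberg method over all names, with a threshold of 0.05. The steps were tested on simulated data. The number of arrays limits the precision.

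Groups and replicate numbers come from the labels. Same-numbered arrays lay on 1 BeadChip, per the file headers, and their deviations from the group means correlated at 0.0766 to 0.255. For arrays of different numbers the mean correlations were -0.123 to -0.0371. Deviations within a group cancel out, so these negative values follow from the same-number ones and are no separate baseline. Not every same-number correlation was above 0.1, but the number marks a shared BeadChip. Alternatives were the BeadChip as a block, no background correction, median centring, no filter and a stricter filter (detection p under 0.01). Others were the mean of the probes, every kept probe fitted on its own but read at the brightest of each name, and the arrays of 1 day alone. Further ones were names detected in all 6 groups and leaving out each array.

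Any tested member could be named, and of each list of related genes up to 4 with the lowest adjusted p at day 6. The members and the lists were chosen with earlier results of these data known. The array also holds 10 targets named for RIKEN clones that map to member symbols, among them Itgb1, Itgb6 and Itga9. They fall outside the rule and were not used. Of 1 tested member the values are not reported here, and the figures leave it out, while the counts include it.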

Additional observations from a re-analysis of the deposited data

Results flagged for a closer look

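For 15 members the knockdown effect at day 6 differed from that at day 2, by a test of the difference itself (limma, adjusted p under 0.05 over all names). Values are the log2 effect at day 6 minus that at day 2. The difference was positive for Itgb5 (0.96), Col2a1 (0.95), Col4a5 (0.73), Col18a1 (0.56), Itga8 (0.55), Itga3 (0.46), Col12a1 (0.41) and Lama5 (0.36). It was negative for Itgb4 (-0.60), Itgb3bp (-0.62), Lamb3 (-0.73), Col16a1 (-0.73), Col17a1 (-0.86), Lama3 (-1.02) and Col20a1 (-1.35). Col4a5, Col12a1 and Itga8 were detected on all 3 arrays of 1 group only, the Esrrb arrays of day 6. They entered the test through it, so their differences rest on levels at or below background and support nothing. Lamb3 was detected on 1 of 3 Esrrb arrays and on no GFP array of day 2. The day 2 part of its difference thus rests on levels near or below background. The second probes of 3 other members did not pass: the difference was 0.24 for Col18a1 (adjusted p = 0.429), 0.405 for Col2a1 (0.279) and 0.03 for Lama3 (0.927). In all, 4 of these differences were lost when single arrays were left out: Col12a1 in 11 of 18 fits (adjusted p from 0.0501 to 0.112), Lama5 in 8 (0.0514 to 0.0936), Itgb3bp in 5 (0.0504 to 0.0688) and Itga8 without replicate 2 of the Esrrb arrays of day 2 (0.0543). Groups of 3 arrays are too small for a search for outlying samples.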

How the results depend on the processing

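Over the 6 comparisons 95 results for single members were called. The fit with the BeadChip (replicate number) as a block kept all 95 and called 8, 15 and 22 members at days 2, 4 and 6, 16 for the difference between days, 23 over time in GFP shRNA cells and 20 over time in Esrrb shRNA cells. Fitting every kept probe on its own kept 95, but the results were read at the same brightest probes, so their effects could not change. It says nothing of the other probes of a gene. No background correction kept 93, the mean of the probes 92, no filter 87 and median centring 83. The stricter filter kept all 90 that it could test. None of the called results changed direction. Of the results that were not called, Eif6 at day 6 turned to 0.34 (adjusted p = 0.00262) with the mean of the probes, and Itgav at day 6 to 0.57 (adjusted p = 0.000852) with the stricter filter, where another probe stands for it. No GFP array of day 6 detected that Itgav probe, so 0.57 is not read as a fold. The count at day 2 fell to 4 with the arrays of day 2 alone, a fit on fewer samples. The count over time in Esrrb shRNA cells was 11 among names detected in all 6 groups, an alternative chosen after seeing the data that tests fewer members. Leaving out single arrays gave 6 to 8, 9 to 15 and 19 to 23 members called at days 2, 4 and 6, 12 to 16 for the difference between days, 16 to 22 over time in GFP shRNA cells and 16 to 19 in Esrrb shRNA cells. The authors' processed table was not run as an alternative. Dim probes near background limit the folds of Col4a5, Col12a1, Col27a1, Itga5 and Itga8.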
